A study of Mus musculus with 40 samples.

Results

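The transcripts described here are those of Nfe2l2, Hmox1, Ftl1 and Txnrd1: the oxidant-sensing transcription factor NRF2 and 3 enzymes or proteins whose genes it is known to drive. They were measured in whole mouse embryos kept in culture and exposed to an activated form of the alkylating drug cyclophosphamide. A probe was taken as a member when the array annotation gave it exactly 1 gene symbol and that symbol was one of these 4 genes. These are 4 of the 6970 genes named by a probe of their own, measured by 10 probes of 15279 tested. Array design 1 held 8 of them among 7680 probes, with 1 for Nfe2l2, 1 for Hmox1, 5 for Ftl1 and 1 for Txnrd1. Array design 2 held the other 2 among 7599 probes, with 1 for Nfe2l2 and 1 for Ftl1.

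The treatment was 40 µM 4-hydroperoxycyclophosphamide, present in the medium for all 5 h of culture at 37 °C. This compound is a pre-activated cyclophosphamide and needs no liver enzymes to become reactive. Control embryos were cultured at 37 °C without it. Embryos of both groups were whole, with no genotype, strain or age given in the sources used here, and how many embryos went into each RNA was not given either. Total RNA of treated embryos was hybridised in one channel of a 2-colour array and total RNA of control embryos in the other. There were 40 arrays in 1 group, with 5 replicates on each of 2 array designs, each replicate in both dye orientations on separate slides and each slide in 2 readouts. The labels separate the replicates only by number, so every p-value reflects sample-to-sample spread that could be purely technical.

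NRF2 is held low in unstressed cells by KEAP1, which presents it to a CUL3 ubiquitin ligase for destruction. Oxidants and electrophiles modify KEAP1, NRF2 then accumulates without needing new mRNA, pairs with a small MAF protein and binds antioxidant response elements in its target genes. Acrolein, a product of activated cyclophosphamide, is a textbook electrophile of this kind. Hmox1 encodes haem oxygenase 1, which opens haem into biliverdin, carbon monoxide and iron. Ftl1 encodes the light chain of ferritin, the cage that stores iron, and Txnrd1 encodes the cytosolic selenoenzyme that keeps thioredoxin reduced. The factor is also known to act on its own gene.

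The sequences just before the starts of these genes are shown so that the antioxidant response element can be looked for near them. They are the 250 bases before the annotated start from RefSeq (GRCm38.p6), on the gene's strand and 5′ to 3′, with the antioxidant response element core in capitals. The windows are chr2:75704664-75704913 on the minus strand for Nfe2l2, chr10:82858956-82859205 on the plus strand for start 2 of 3 of Txnrd1, and chr7:45459887-45460136 on the minus strand for Ftl1.
Nfe2l2: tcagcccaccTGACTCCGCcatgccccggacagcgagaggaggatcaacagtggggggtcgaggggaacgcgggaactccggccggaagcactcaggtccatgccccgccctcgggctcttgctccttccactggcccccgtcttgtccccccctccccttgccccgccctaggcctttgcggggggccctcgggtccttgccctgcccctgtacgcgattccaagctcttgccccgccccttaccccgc
Txnrd1, start 2: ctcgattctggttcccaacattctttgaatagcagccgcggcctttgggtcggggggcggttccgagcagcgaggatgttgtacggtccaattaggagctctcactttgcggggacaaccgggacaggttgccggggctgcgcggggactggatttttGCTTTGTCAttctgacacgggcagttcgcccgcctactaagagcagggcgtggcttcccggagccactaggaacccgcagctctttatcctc
Ftl1: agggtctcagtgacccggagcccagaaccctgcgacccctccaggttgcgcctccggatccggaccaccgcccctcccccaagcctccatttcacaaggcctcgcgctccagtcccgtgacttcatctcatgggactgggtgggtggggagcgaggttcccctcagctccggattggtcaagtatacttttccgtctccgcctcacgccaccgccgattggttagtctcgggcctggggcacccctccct

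The core was searched on both strands as TGACNNNGC. In the Nfe2l2 window it was found once as TGACTCCGC, 240 to 232 bases before the start. In the window of Txnrd1 start 2 it lay on the minus strand, so that the plus strand reads GCTTTGTCA, 92 to 84 bases before the start. The other 2 Txnrd1 windows and the Ftl1 window do not hold these letters. The core was present in 3338 of all 32851 promoter windows of this length (10.2%), so a match is common and describes letters only. The AP-1 site TGAGTCA, which overlaps the core in many known elements, was in none of these windows and in 1466 (4.5%) of all windows. The GC box GGGCGG, bound by SP factors, occurred 3 times in the Nfe2l2 window, once in that of Txnrd1 start 2 and once in that of Ftl1, against 32.7% of all windows with any. The Hmox1 window was not analysed here.

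The deposited values are log ratios whose numerator and log base are not stated. They were read as channel 1 over channel 2 and as base 2, and every fold assumes that base. This makes treated over control the likely direction, on the basis of the channel order in the labels and of the p53 targets Ccng1, with log2 ratios of 2.41 and 2.90 on array design 1 and 1.39 on array design 2, and Mdm2, with 0.89 and 0.91. If the other channel was the numerator, every rise below is a fall. Arrays were centred on their median, so each change is relative to the median probe of its array. The uncentred replicate medians ran from −0.38 to −0.10 on array design 1 and from −0.66 to −0.12 on array design 2, with no total RNA yield to say whether all transcripts moved. A ratio holds no level of either channel, so the tissue could not be checked against its markers, and fewer cells of a type cannot be told apart from less RNA per cell. The B readout of replicate 4 on array design 1, with the treated embryos in channel 2, stood apart. It lacked 786 values (10.2%), had an SD of 1.13 against 0.30 to 0.76 in the other readouts of that design, and lacked 7 of the 8 member probes. Of the 50 probes called on that design, 44 had no value in it, so the members' values for that replicate and orientation rest on the other readout. Without that readout, 1224 probes were called in place of 50, and the values of those 7 member probes are the same since they had none in it.

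All 10 member probes were above 0 in each of the 5 replicates, with mean log2 ratios from 0.33 to 0.53, or 1.26 to 1.45 times the control. Of all probes, 12.9% were above 0 in all 5 replicates on array design 1 and 20.1% on array design 2. Without centring, each member probe of array design 1 was above 0 in 4 of 5 replicates, while Nfe2l2 and Ftl1 on array design 2 were so in 2 and 1 of 5. With limma and Benjamini-Hochberg adjustment over all probes of a design at a threshold of 0.05, the 5 Ftl1 probes and the Txnrd1 probe of array design 1 were called higher. On that design 0.638% of probes were called higher and 0.013% lower. Those calls were not spread evenly. Of the 50 in all, 44 were among the 786 probes without a value in the B readout of replicate 4. The 5 Ftl1 probes were among these, so 0.638% is not the share for probes of their kind. Nfe2l2 and Hmox1 on that design were just outside, at an adjusted p of 0.0516 in limma, a value they share with 695 probes in all including themselves. Both member probes of array design 2 were called higher, where 19.8% of probes were called higher and 8.07% lower.

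**Figure D1:**
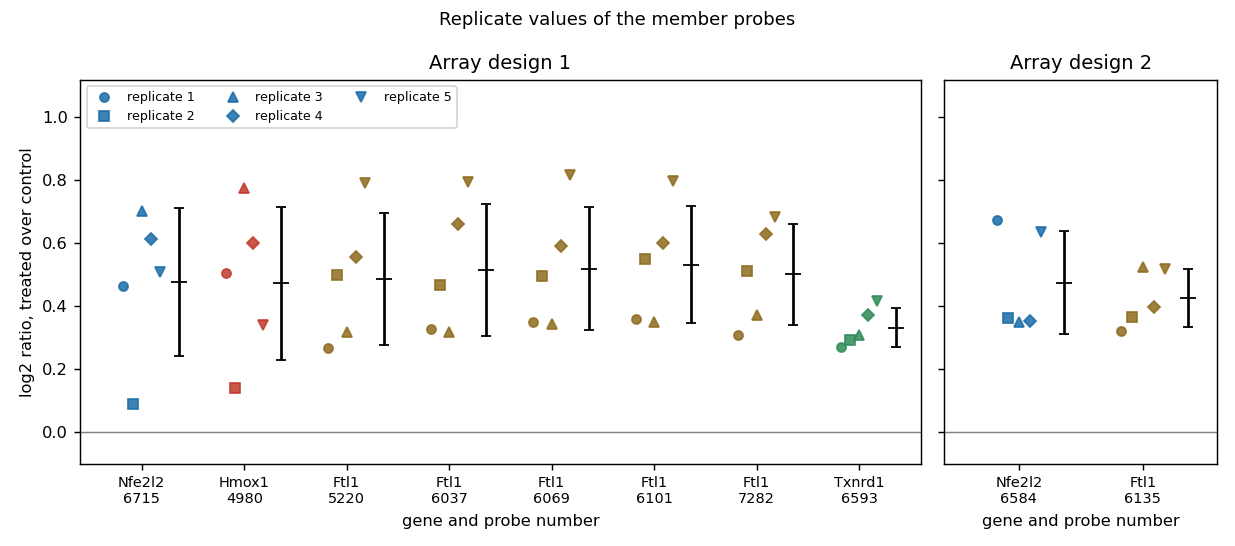
Log2 ratios of treated over control embryos (vertical axis) for each member probe (horizontal axis, gene and probe number) on array designs 1 and 2. Each marker is 1 replicate, with both dye orientations averaged, and the bar is the mean with its SD over 5 replicates. All points lie above 0, and the Txnrd1 points lie closest together.

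Nfe2l2, the gene of NRF2 itself, was measured by 1 probe on each design. Probe 6715 of array design 1 had log2 ratios of 0.46, 0.09, 0.70, 0.61 and 0.51 in replicates 1 to 5. Replicate 2 was the lowest and stood close to the control, while the other 4 lay together. The mean was 0.48 ± 0.23 (SD, n = 5), or 1.39-fold, with an adjusted p of 0.0516 in limma. Probe 6584 of array design 2 had log2 ratios of 0.67, 0.36, 0.35, 0.35 and 0.64. Here replicates 1 and 5 were high and the other 3 nearly equal, an order unlike that on array design 1. The mean was again 0.48 ± 0.16 (SD, n = 5), or 1.39-fold, with an adjusted p of 5.38e-06 in limma. Nfe2l2 rose by this test on array design 2, where 1.07% of probes had a higher mean. For array design 1, where it missed the threshold, 1.38% did.

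With readouts averaged, Nfe2l2 was the member whose sign was the same in both dye orientations of every replicate. With the treated embryos in channel 1, its ratio on array design 1 was 0.18 ± 0.13, and with them in channel 2 it was 0.77 ± 0.43 (SD, n = 5 each). The same values on array design 2 were 0.47 ± 0.26 and 0.49 ± 0.23. In both orientations of all 5 replicates the ratio was above 0, on both designs. Only 25 probes of array design 1 (0.326%) and 24 of array design 2 (0.316%) had that property, and no other member had it. The size still differed between orientations on array design 1, where their mean without turning, the dye part, ran from −0.58 to −0.01 over the replicates (adjusted p = 0.0859 in limma). Of single readouts, 15 of 19 on array design 1 and 18 of 20 on array design 2 were above 0, against 17 of 19 for Hmox1. On array design 1 the counts were 14 to 16 of 19 for the Ftl1 probes and 16 of 20 for Txnrd1. For Ftl1 on array design 2 it was 15 of 20. By single readouts Nfe2l2 thus did not stand apart on array design 1. In replicate 2 of array design 1, the Nfe2l2 readout without the B mark was below 0 in both orientations, at −0.12 and −0.09.

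**Figure D2:**
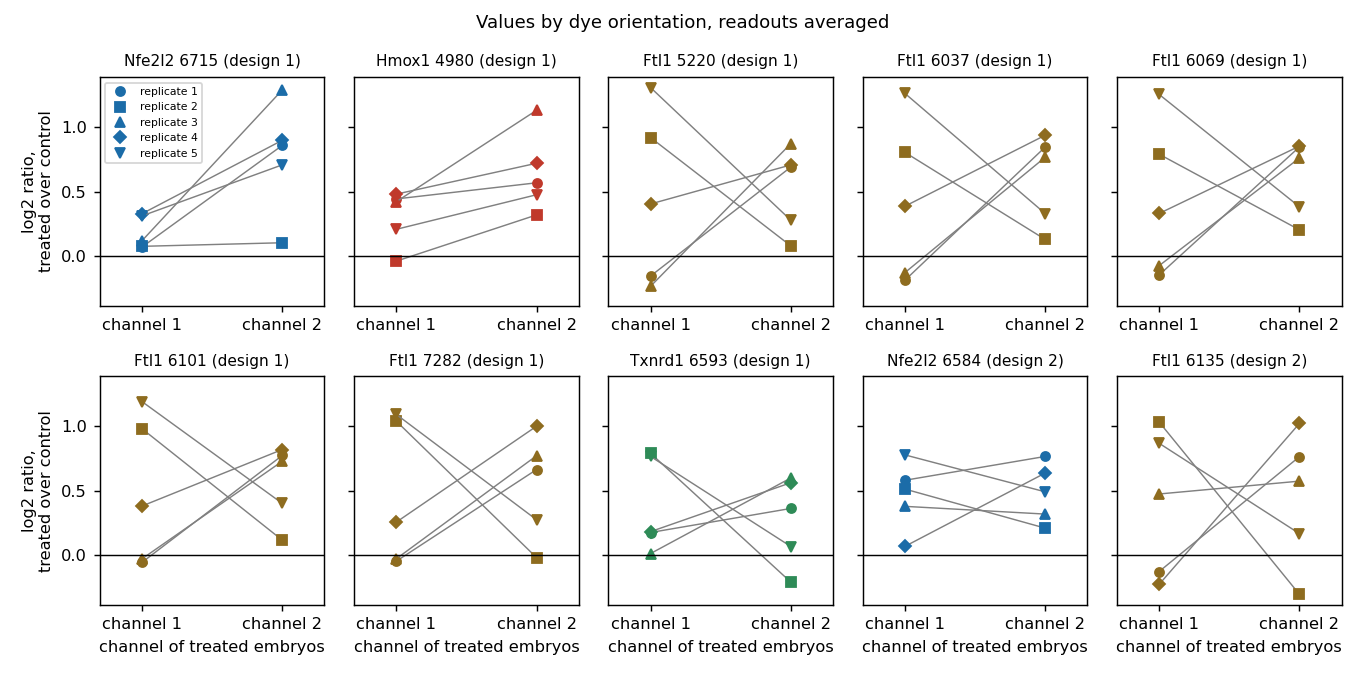
Log2 ratios of treated over control embryos (vertical axis) with the treated embryos in channel 1 or channel 2 (horizontal axis), 1 panel per member probe. Each marker is 1 replicate, readouts averaged, and lines join the orientations of a replicate; the Nfe2l2 points stay above 0 in both, while the lines of Ftl1 cross.

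Nfe2l1, the related factor that responds to proteasome stress, did not pass the test on either design. Its probe on array design 1 had a log2 ratio of −0.09 ± 0.19 and its 2 probes on array design 2 together had 0.08 ± 0.09 (SD, n = 5). Nfe2l2 was higher than Nfe2l1 in 5 of 5 replicates on both designs, by 0.56 ± 0.34 and 0.40 ± 0.20 on the log2 scale. The exact two-sided sign-flip test gave p = 0.0625 for each, the smallest 5 replicates allow, and 0.0833 after adjustment over 4 such comparisons. These comparisons with related genes were chosen after the values had been seen.

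Hmox1, the inducible haem oxygenase, was measured on array design 1 by probe 4980. Its log2 ratios were 0.51, 0.14, 0.78, 0.60 and 0.34 in replicates 1 to 5. Replicate 3 was the highest and replicate 2 the lowest, as for Nfe2l2 on that design. The mean was 0.47 ± 0.24 (SD, n = 5), or 1.39-fold, with an adjusted p of 0.0516 in limma, so the gene did not pass. In channel 1 the mean was 0.30 ± 0.22 and in channel 2 it was 0.64 ± 0.31, and both orientations were above 0 in 4 of 5 replicates. Of 19 single readouts, 17 were above 0. Without the failing B readout of replicate 4, from which both probes are absent, the values were unchanged while the adjusted p in limma was 0.0033 for Hmox1 and 0.003 for Nfe2l2. In that comparison the readout enters only through other probes, which set the shared spread and the adjustment.

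Hmox2, the constitutive haem oxygenase, stood at −0.01 ± 0.17 on array design 1 and 0.03 ± 0.12 on array design 2 (SD, n = 5) and passed on neither. Hmox1 was higher than Hmox2 on array design 1 in 5 of 5 replicates, by 0.48 ± 0.25 on the log2 scale (exact sign-flip p = 0.0625, adjusted 0.0833). By the root mean square difference over the 5 replicates, Hmox1 and Nfe2l2 were each other's nearest probe among 4748 single-gene probes of other genes, at 0.087. After Nfe2l2, the nearest to Hmox1 were Mettl6 (0.113) and Suz12 (0.128). After Hmox1, the nearest to Nfe2l2 were Carhsp1 (0.0957) and Suz12 (0.117). For the Nfe2l2 probe of array design 2, which holds no Hmox1 probe, the nearest were Ptp4a1 (0.0753), Itm2b (0.0827) and Glud1 (0.0949). Probes of one replicate share its arrays, so such likeness over 5 values describes these arrays only.

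Ftl1, the ferritin light chain, had the highest mean ratios of the members on array design 1, by less than the spread over replicates. The 5 probes of array design 1, numbered 5220, 6037, 6069, 6101 and 7282, had means from 0.49 to 0.53 on the log2 scale, or 1.4 to 1.45 times the control. Averaged over these probes, the log2 ratios were 0.32, 0.50, 0.34, 0.61 and 0.78 in replicates 1 to 5. Replicates 1 and 3 were low and replicate 5 high in every probe. The SD among the 5 probes within a replicate averaged 0.037, against 0.19 for the SD of their mean over replicates. The probes therefore repeat 1 measurement of the same RNA and are no replicates of the treatment, and 3 of them are spaced by 32 probe numbers. The highest single mean was 0.53 ± 0.19 (SD, n = 5) for probe 6101, and the lowest was 0.49 ± 0.21 for probe 5220. Their adjusted p-values in limma were 0.0318 and 0.0495, and all 5 lay between these. Ftl1 rose by this test.

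The Ftl1 probe of array design 2, numbered 6135, had log2 ratios of 0.32, 0.37, 0.53, 0.40 and 0.52. The 5 values lay close together, with a mean of 0.43 ± 0.09 (SD, n = 5), or 1.34-fold, and an adjusted p of 5.62e-06 in limma. This is the one member whose sign turned without centring, where the mean was −0.0033. The ferritin light chain has many processed copies in the mouse genome, and near-identical transcripts can bind these probes.

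The Ftl1 ratios came from opposite orientations in different replicates. For array design 1, probe 6101 in channel 1 read −0.05, 0.98, −0.03, 0.38 and 1.19, and in channel 2 it read 0.77, 0.12, 0.73, 0.82 and 0.40. Replicates 2 and 5 were thus high in channel 1, and replicates 1 and 3 in channel 2. For array design 2, probe 6135 in channel 1 read −0.13, 1.03, 0.48, −0.22 and 0.87, and in channel 2 it read 0.77, −0.30, 0.58, 1.02 and 0.17. Both orientations were above 0 in 3 of 5 replicates for 4 of the probes of array design 1 and in 2 of 5 for probe 7282 and for probe 6135. The replicates thus lay close together after the orientations were averaged, and in 1 orientation alone the SD was 0.57 for channel 1 and 0.52 for channel 2 on array design 2. In neither orientation alone did probe 6135 pass, with adjusted p-values in limma of 0.162 and 0.322.

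The ferritin heavy chain Fth1, which carries the iron-oxidising site, had 1 probe on array design 1. Its log2 ratios were −0.04, −0.24, 0.19, 0.73 and 0.22, a spread that includes 0, with a mean of 0.17 ± 0.36 (SD, n = 5) and an adjusted p of 0.355 in limma. The mean of the 5 Ftl1 probes was higher than Fth1 in 4 of 5 replicates, by 0.34 ± 0.34 on the log2 scale (exact sign-flip p = 0.125). The probes nearest to Ftl1 probe 5220 were Laptm4a (0.0443), Pcnp (0.0477) and Lima1 (0.0528) among 4744, and Laptm4a, a lysosomal membrane protein, was among the 3 nearest for 4 of the 5 probes. For the probe of array design 2 they were Taf1d, Mmp2 and Tpt1, from 0.0569 to 0.0718.

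Txnrd1 had the lowest mean of the member probes and, with orientations averaged, the smallest spread over replicates. Probe 6593 of array design 1 had log2 ratios of 0.27, 0.29, 0.31, 0.37 and 0.42. The mean was 0.33 ± 0.06 (SD, n = 5), or 1.26-fold, with an adjusted p of 0.0382 in limma, and 5.46% of probes had a higher mean. Txnrd1 rose by this test. It was the one member with a value in the failing readout, so its replicate 4 rests on all readouts. Its orientations differed as those of Ftl1 did, with 0.79 and 0.77 in replicates 2 and 5 in channel 1 and −0.21 and 0.07 in channel 2. In 1 orientation alone its SD was 0.36 for channel 1 and 0.34 for channel 2. Both orientations were above 0 in 4 of 5 replicates. The nearest probes were Ubl5 (0.035), Glrx5 (0.0363), which serves mitochondrial iron-sulphur assembly, and Ctsb (0.0367).

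**Figure D3:**
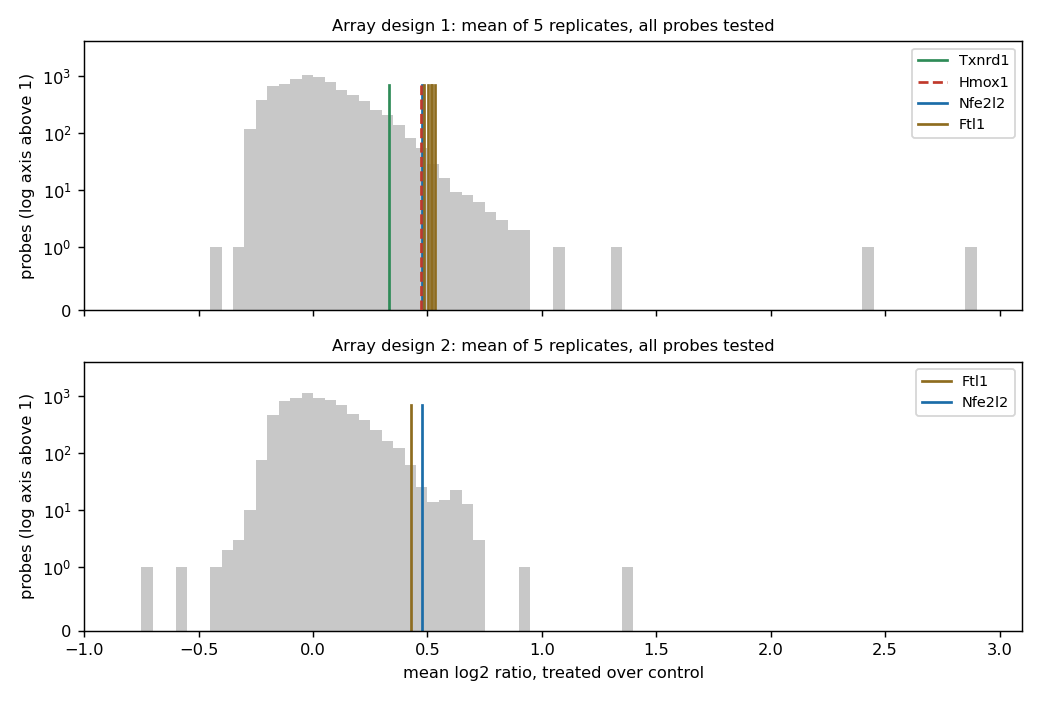
Number of probes (vertical axis, log scale above 1) by mean log2 ratio of treated over control embryos over 5 replicates (horizontal axis, bins of 0.05), for each array design. Coloured lines mark the member probes, with Hmox1 dashed because it lies on the Nfe2l2 line; all stand in the upper flank and none in the far tail, where Ccng1 reached 2.90.

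The slide numbers fall into 2 series, numbered from 2000 and from 3000, which split the replicates. Nfe2l2 on array design 1 had a mean of 0.28 in the 2 replicates of the 2000 series and 0.61 in the 3 of the 3000 series. Hmox1 had 0.32 and 0.57, Txnrd1 had 0.28 and 0.37, and each Ftl1 probe was likewise the higher in the 3000 series. The difference between series did not pass for any member (adjusted p = 0.999 in limma for the 8 probes of array design 1, and 0.96 and 0.915 for Nfe2l2 and Ftl1 on array design 2). It passed for 0 probes of either design, with 142 and 719 at an unadjusted p under 0.05. Within the 2000 series alone the 5 Ftl1 probes of array design 1 passed, and within the 3000 series none did. Of all 7680 probes, 60 and 3 were called in these fits. The Ftl1 ratios were 0.38 to 0.46 in the 2000 series and 0.56 to 0.59 in the 3000 series, so the lost calls do not mean smaller ratios.

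Around NRF2 stand its repressors and partners. Of a list of 19 genes of this kind, 9 were measured on array design 1 by 12 probes, and none passed. The median log2 ratio was 0.09 against 0.00 over all probes of that design. The nearest to the threshold besides Nfe2l2 was Btrc, a ubiquitin ligase subunit that takes NRF2 as a substrate, at −0.17 ± 0.08 and −0.07 ± 0.11 for 2 probes (adjusted p = 0.0663 and 0.458 in limma). Array design 2 measured 8 genes by 12 probes, of which 2 rose and 2 fell, with a median of 0.01 against 0.02 over all probes. Among all its probes 19.8% rose and 8.07% fell. Besides Nfe2l2, the ligase scaffold Cul3 had probes in opposite directions, 0.14 ± 0.03 and −0.15 ± 0.10, so the gene has no single direction here. Btrc had 1 probe that fell, at −0.15 ± 0.12, and 1 at −0.0038 ± 0.098.

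Among 32 genes of redox and drug defence known as NRF2 targets, 10 were measured on array design 1 by 14 probes, of which Txnrd1 rose and none fell. The list median was 0.27, and 10 of 14 probes were above 0. Akr1a1, an aldehyde reductase, stood at 0.43 ± 0.21 there with an adjusted p of 0.0516 in limma. In the data of array design 2, 8 of 16 probes rose, from 5 of 10 genes, and none fell. The shares over all probes of that design were 19.8% and 8.07%. The list median there was 0.14, and 10 of 16 probes were above 0. Akr1a1 rose by 0.41 ± 0.06 and 0.37 ± 0.12 in its 2 probes, and Txn1, the thioredoxin that Txnrd1 reduces, by 0.37 ± 0.09. Tkt, the transketolase of the pentose phosphate path, rose in 3 of 4 probes, by 0.15 to 0.28, with the other at −0.14 ± 0.16. The median of this list was thus above that of all probes on both designs, while Gclc, the catalytic subunit of glutathione synthesis, was at 0.13 ± 0.15 and 0.21 ± 0.32 on array design 1 and did not pass. Other listed targets lay below 0 without passing. Me1 was at −0.05 and −0.0002 on array design 1 and at −0.11 and −0.04 on array design 2. Abcc1 was at −0.0021 and −0.15 on array designs 1 and 2, Cbr3 at −0.07 on array design 1 and Ephx1 at −0.09 on array design 2.

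Hmox1 was the highest of the haem genes on array design 1. Of 22 listed genes of haem breakdown and synthesis, 12 were measured there by 12 probes, with none called and a median of 0.01. Blvrb, a biliverdin reductase, was at −0.07 ± 0.11. Tspo, a mitochondrial membrane protein that binds porphyrins, was nearest to the threshold after Hmox1, at −0.16 ± 0.04 (adjusted p = 0.0665 in limma). On array design 2, where 19.8% of all probes rose, 1 of 9 listed probes did, with a median of 0.03. It was Hebp1, a haem-binding protein, by 0.42 ± 0.09 (adjusted p = 5.79e-06 in limma).

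Ftl1 gave most of the calls among 27 listed iron genes on array design 1, where 6 of 16 probes rose and none fell, 5 of them Ftl1. The other was Glrx5, by 0.35 ± 0.07 (adjusted p = 0.0382 in limma). Array design 2 had 4 of 9 probes that rose and 1 that fell, against 19.8% and 8.07% of all probes. Besides Ftl1, Pcbp2, which hands iron to ferritin, rose by 0.24 ± 0.12, and the mitochondrial iron importer Slc25a37 by 0.19 ± 0.13. The iron exporter Slc40a1 fell by 0.18, with an SD of 0.15. The transferrin receptor Tfrc was at 0.24 ± 0.19 on array design 1 and at 0.14 ± 0.17 and −0.02 ± 0.14 on array design 2, none passing. List medians were 0.26 and 0.14 with the Ftl1 probes counted, which are 5 of the 16 on array design 1.

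Txnrd1 was the only one of 9 thioredoxin, peroxiredoxin and glutaredoxin probes to pass on array design 1, though 8 of the 9 were above 0. The median was 0.33, the value of Txnrd1 itself. The peroxiredoxin Prdx1 stood at 0.46 ± 0.27 and 0.44 ± 0.29, with adjusted p = 0.0516 in limma for both. Of 13 probes on array design 2, 8 rose, from 7 of 10 genes, and 1 fell, with a median of 0.21. Txnip, Txnl4a and both Prdx4 probes were among the 8. Among all probes of that design 19.8% rose and 8.07% fell. The 3 genes with the smallest p were Txn1, the mitochondrial peroxiredoxin Prdx3 at 0.27 ± 0.05 and the thioredoxin-like Txnl1 at 0.22 ± 0.11. Among genes that remove superoxide and peroxide and other selenoproteins, none of 7 probes passed on array design 1, where Gpx1 was at 0.22 ± 0.11. Array design 2 measured 16 such probes, of which 8 rose and none fell. The secreted glutathione peroxidase Gpx3 rose by 0.55 ± 0.14, the copper-zinc superoxide dismutase Sod1 by 0.40 ± 0.07 and the selenoprotein Selenow by 0.34 ± 0.07. The medians were 0.01 and 0.14.

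**Figure D4:**
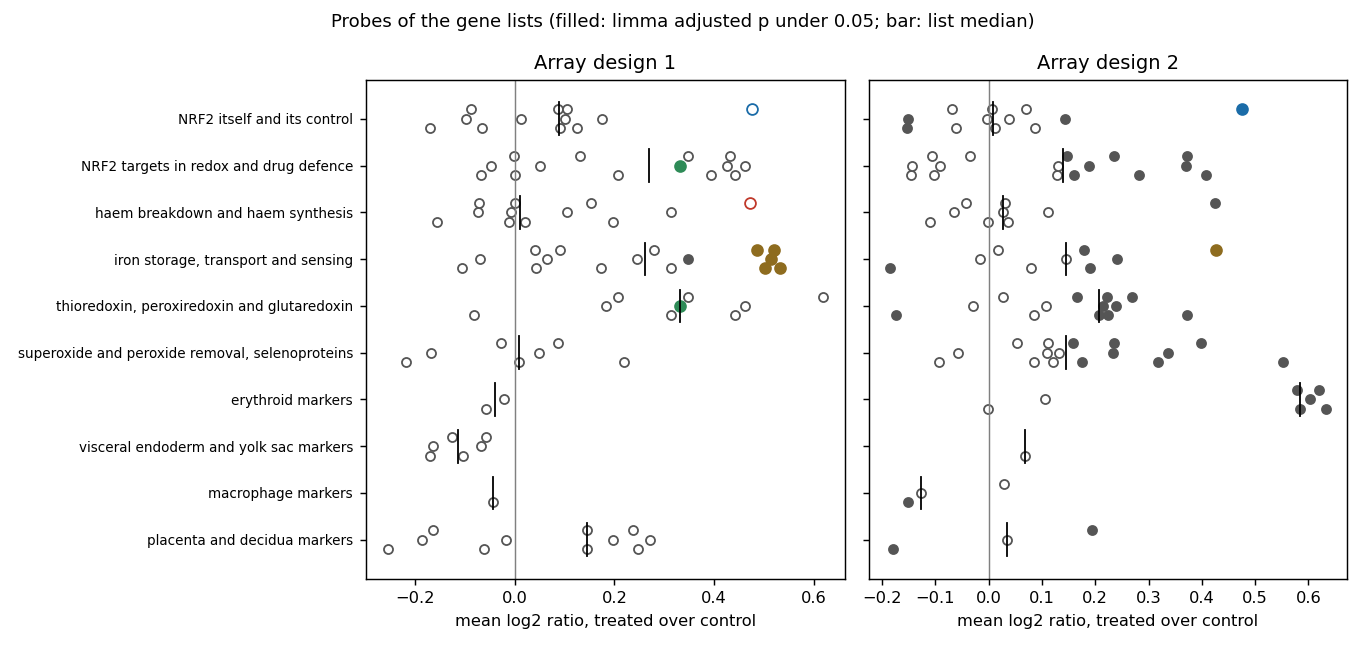
Mean log2 ratio of treated over control embryos (horizontal axis, 5 replicates) of each probe in the pathway and cell type lists (vertical axis), for both array designs. Filled points passed an adjusted p of 0.05 in limma, open ones did not, coloured points are the 4 genes and bars are list medians. With the 4 genes counted in them, the redox, iron and thioredoxin lists have medians above 0.1 on both designs. The redox and thioredoxin lists share Txnrd1 and Prdx1 on array design 1 and Txn1 on array design 2. The placenta list on array design 1 and the superoxide and erythroid lists on array design 2 also have medians above 0.1. Of the 16 iron probes on array design 1, 5 are Ftl1.

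Some of the listed markers of other cells passed the test on array design 2, and none did on array design 1. Red cells hold much of an embryo's haem and ferritin. Among all probes of array design 2, 19.8% rose and 8.07% fell. On that design 5 of 7 probes of 16 listed erythroid genes rose, with a median of 0.58. They were the embryonic globins Hbb-y, by 0.58 to 0.63 in 4 probes, and Hba-x, by 0.58 ± 0.23. Alas2, the first enzyme of red cell haem synthesis, was at −0.0018 ± 0.12 and the red cell anion exchanger Slc4a1 at 0.11 ± 0.12, neither passing. For array design 1, Gata1 and Ermap, the 2 erythroid genes measured, were at −0.06 ± 0.07 and −0.02 ± 0.24. Replicates 3 and 5 were the highest in each globin probe on array design 2 and in Ftl1 probe 6135, with the other replicates in differing order, and the part of red cells in the ferritin or haem results was not tested. Macrophages recycle iron and use Hmox1, and 1 of 3 macrophage probes fell on array design 2, C1qa by 0.15, while Lyz2 on array design 1 was at −0.04 ± 0.15. Visceral endoderm and yolk sac markers had none called of 6 and 1 probes, with medians of −0.11 and 0.07 and Fga and Gata4 nearest to the threshold at −0.17 ± 0.10 and 0.07 ± 0.17. Of placenta and decidua markers, none of 11 probes passed on array design 1, with a median of 0.15. The 6 above 0 were the Krt8 and Krt18 probes and 1 of Peg10. Cts7 was at −0.19 ± 0.10, Plac1 at −0.16 ± 0.07 and −0.02 ± 0.12, and the other Peg10 probe at −0.06 ± 0.10. Prl8a2 stood at −0.26 ± 0.12 and the keratin Krt8 between 0.15 and 0.27 in 3 probes, with the same adjusted p of 0.0516 in limma for Prl8a2 and the highest of these. Of 3 on array design 2, 1 rose, Krt18 by 0.19, and 1 fell, Dcn by 0.18, while its other probe stood at 0.03 ± 0.05.

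The core searched before the starts was present in few genes of these lists. It was found in 2 of 12 drug defence genes with a window, Prdx1 and Txnrd1, and in 1 of 14 haem genes, Flvcr1. In the iron list it was found in 2 of 11, Isca1 and Ncoa4, and in the erythroid list in 2 of 5, Hba-x and Hbb-y. Over all genes with a window it was in 3112 of 27025.

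The values held their sign under most other processing. Calls on array design 2 held under most of it too, in 19 of 21 alternatives for Nfe2l2 and 18 of 21 for Ftl1, while on array design 1 each member probe was called in 7 to 9 of 19 to 21. Over the alternatives tried, the Nfe2l2 ratio on array design 1 lay between 0.16, without centring, and 0.77, in channel 2 only. Its probe on array design 2 lay between 0.05 and 0.59. When a smooth trend along the dye profile of each replicate was taken out of the values, which removed 34.0 to 81.5% of the variance of a replicate on array design 1 and 35.2 to 61.6% on array design 2, Hmox1 was at 0.47 (adjusted p = 0.00786 in limma) and Nfe2l2 at 0.39 and 0.41 (0.0392 and 0.0048), all past the threshold. Ftl1 was at 0.24 on array design 2 (0.0255) and 3 of its 5 probes passed on array design 1. Txnrd1 was at 0.16 and did not pass (0.165). Without replicate 1, 2, 3 or 5, neither Txnrd1 nor any Ftl1 probe of array design 1 passed, with adjusted p in limma up to 0.139 and 0.128. Nfe2l2 on array design 1 passed without replicate 2 (adjusted p = 0.04 in limma) or replicate 4 (0.0493), and Hmox1 did not pass in any of the 5 such fits.

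**Figure D5:**
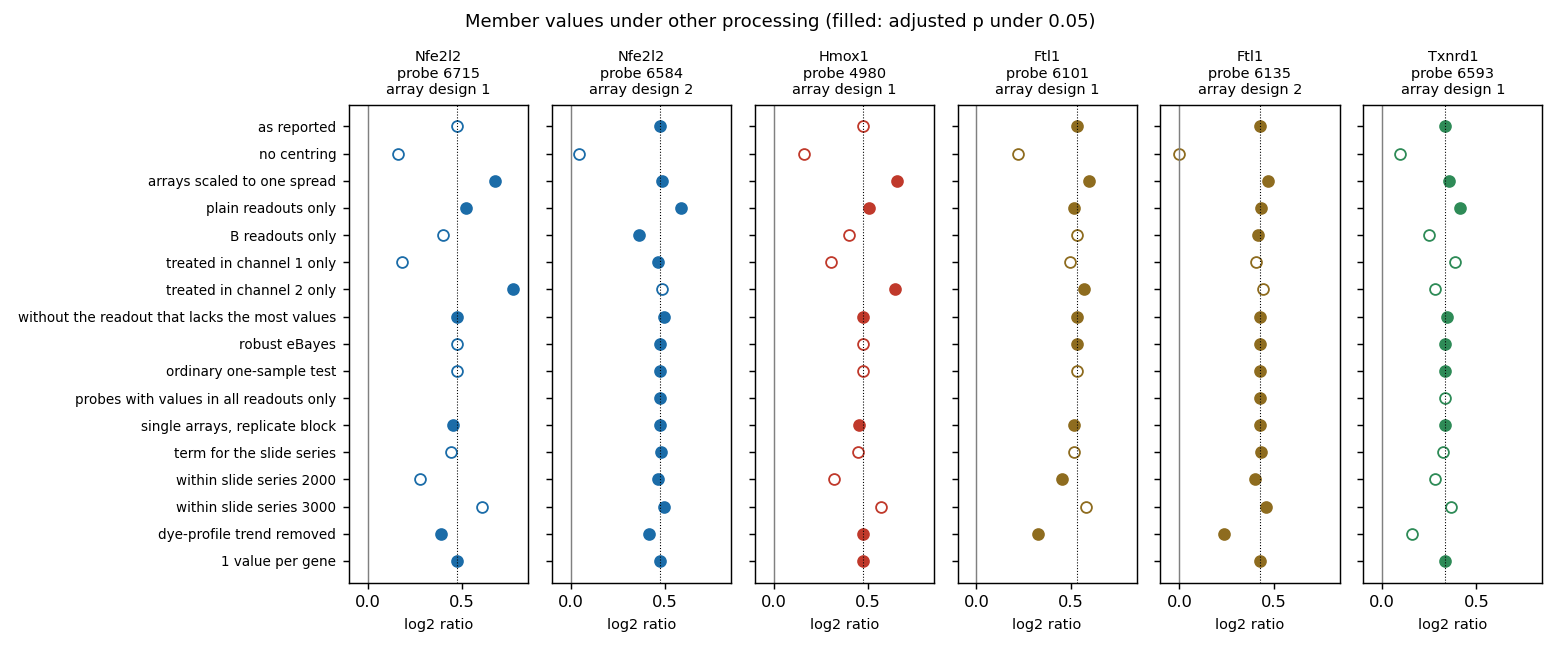
Log2 ratios of treated over control embryos (horizontal axis) of 6 member probes (for Ftl1 on array design 1 the probe with the highest mean) under each other way of processing (vertical axis), with filled points past an adjusted p of 0.05 and a dotted line at the value as reported. Values without centring lie nearest to 0. When the dye-profile trend is removed, Hmox1 keeps its size, Nfe2l2 falls to 0.39 and 0.41, and Ftl1 and Txnrd1 shrink more.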

How the data were processed

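The members and the gene lists were chosen with earlier results of these data known. The deposited values are log ratios per spot and array, taken as log2. The sources used here do not say how the authors scanned the arrays, corrected background or normalized, nor what the B readout stands for. Probes were named through the platform annotation (4749 and 4935 of 7680 spots on each design with 1 symbol, 227 and 275 with several, 2704 and 2470 with none), with symbols checked against the GRCm38.p6 gene table, where 4712 and 4884 matched and 0 changed. Genes named beside the members were those of each list with the smallest p, and the 3 nearest probes in replicate values. A few others were named after their values were seen.

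Each array was centred on its median. Spots of one accession were averaged, ratios of control over treated were given the opposite sign, and the mean over readouts, then over both orientations, was 1 value per replicate. Probes with at least 3 replicates were tested against 0, two-sided, with limma 3.58.1 in R 4.3.3 (lmFit, eBayes) and Benjamini-Hochberg adjustment at 0.05, each design on its own. Their 5 replicates limit the precision. Alternatives changed centring, scaling, readouts, orientation, the test, missing values, slide series and replicates, and 1 used mgcv 1.9.3 to remove a smooth trend on 3 principal components of the dye effect. The fit was tested on simulated data.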

Additional observations from a re-analysis of the deposited data

How the results depend on the processing

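Counts of probes called moved most. On array design 1, 50 probes were called, against 4615 without centring, of which 19 were higher and 4596 lower. With arrays scaled to one spread there were 345, with plain readouts only 501 and with B readouts only 3. With treated embryos in channel 1 only there were 2324 (1219 higher and 1105 lower), in channel 2 only 1108 (318 and 790), without the failing readout 1224 (781 and 443), with single arrays and the replicate as a block 869 (618 and 251), with a term for the slide series 12, within the 3000 series 3 and with 1 value per gene 854 (390 and 464). With the ordinary one-sample test there were 68 (10 and 58), and with the dye-profile trend removed 60 (43 and 17). With complete probes only, limma called 0 of 6894, with 2018 at an unadjusted p under 0.05. On array design 2, 2114 were called, against 6655 without centring (21 and 6634), 1330 scaled, 1076 from plain readouts, 1190 and 117 in channel 1 or 2 only, 869 in the ordinary one-sample test, 811 within the 3000 series and 386 with the dye-profile trend removed. Leaving out 1 replicate gave 7 to 82 on array design 1, with 82 without replicate 4, and 1013 to 2637 on array design 2, with 1013 without replicate 1.

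The 5 called Ftl1 probes of array design 1 became 0 without centring, with B readouts, in channel 1 only, in the ordinary one-sample test, with the slide series term and within the 3000 series, 3 with the trend removed, and 0 to 5 without 1 replicate. Their ratios were 0.17 to 0.22 without centring and 0.25 to 0.32 with the trend removed, but 0.50 to 0.54 with B readouts, 0.43 to 0.50 in channel 1, unchanged in the one-sample test, 0.47 to 0.52 with the series term, 0.56 to 0.59 within the 3000 series and 0.41 to 0.58 without 1 replicate. Txnrd1 lost its call at 0.093 without centring, 0.25 with B readouts, 0.39 and 0.28 in channel 1 or 2 only, 0.33 over complete probes, 0.32 with the series term, 0.28 and 0.37 within the 2000 and 3000 series and 0.16 with the trend removed. Nfe2l2 on array design 1 passed at 0.67 scaled, 0.52 from plain readouts, 0.77 in channel 2 only, 0.39 with the trend removed and 0.48 without the failing readout or per gene, as did Hmox1 at 0.66, 0.51, 0.64, 0.47, 0.47 and 0.47. With single arrays and the replicate block they passed at 0.45 and 0.46, and the other 8 member probes kept their calls. On array design 2, Nfe2l2 lost its call at 0.046 without centring and 0.49 in channel 2 only, and Ftl1 at −0.0033 without centring, 0.41 in channel 1 only and 0.45 in channel 2 only. Without 1 replicate, Nfe2l2 lay between 0.42 and 0.57 on array design 1 and between 0.43 and 0.51 on array design 2, Hmox1 between 0.40 and 0.56, Txnrd1 between 0.31 and 0.35 and Ftl1 on array design 2 between 0.40 and 0.45. The series difference passed for 1 probe on array design 1 without the failing readout and for 13 on array design 2 without centring, and for 0 to 1 and 0 to 48 without 1 replicate. The causes were not tested. Fits on 1 orientation keep all 5 replicates but average fewer readouts in each, and fits on 1 series have fewer replicates. No detection limit can be set from ratios.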
